A study of Mus musculus with 5 samples.

Results

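The genes described here are 45 type I interferon-stimulated genes, taken by symbol from a list and sorted into 9 families, of the 55250 named rows in the deposited expression table. All 45 symbols were found. The families were ISG15 conjugation with 3 genes, Ifit with 5, Mx with 2, Oas with 6, RNA and nucleic acid sensors with 6, Ifi200 with 2, Stat and Irf with 3, Gbp with 4 and a mixed set of other effectors with 14. RNA had been sequenced from sorted cells labelled PMN-MDSC, polymorphonuclear myeloid-derived suppressor cells, which are immature neutrophil-like cells that restrain T cells. One group was 3 libraries of such cells from lung (numbers 1, 2 and 3) and the other was 2 libraries from tumor (numbers 2 and 3). All 5 libraries were of wild-type genotype, from mouse, as primary cells. Neither the labels nor the design text name the markers used for sorting, the kind of tumor, the mouse strain or age, or the animals behind each library. The p-values therefore measure only how much these libraries vary, and that variation may be technical. The series title concerns tumoral STING, a sensor pathway whose activation induces type I interferon, and the recruitment of MDSCs.

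Type I interferons are secreted proteins that bind the receptor IFNAR1/IFNAR2, whose kinases JAK1 and TYK2 phosphorylate STAT proteins, STAT2 among them. Together with IRF9 these make up the complex ISGF3, which binds the interferon-stimulated response element (ISRE) in the promoters of many genes. Their products sense viral nucleic acid, degrade or sequester viral RNA, modify proteins with ISG15 and raise the level of the pathway's own parts. Many of these genes also respond to interferon gamma through the gamma-activated site (GAS), and immune cells commonly hold a resting level of them.

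Promoter stretches around the ISRE core show the motif that the families share and how near-identical some paralogs are. They come from RefSeq promoter windows of build GRCm38.p6, from 250 bases before to 50 after a gene's start, and each run reads 5′ to 3′ on the strand of the gene. Capitals mark the core, which is GAAA, then NN for any bases, then GAAA, or its reverse complement, with overlapping matches joined, and 10 bases stand on each side where the window before the gene start allowed it. Isg15 had 3 overlapping cores, and Bst2 and Ifi205 are shown because they were higher in tumor.
Isg15 (chr4:156200865-156200906, minus strand): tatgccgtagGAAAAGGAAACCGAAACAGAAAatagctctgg
Ifit3 (chr19:34583363-34583426, plus strand): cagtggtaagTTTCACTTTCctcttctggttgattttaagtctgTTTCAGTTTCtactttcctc
Ifit3b (chr19:34607759-34607822, plus strand): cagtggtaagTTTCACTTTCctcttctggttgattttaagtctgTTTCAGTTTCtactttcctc
Oas1a (chr5:120907526-120907555, minus strand): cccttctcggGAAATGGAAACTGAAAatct
Oas1g (chr5:120887614-120887641, minus strand): cccttctcggGAAATGGAAACTGAAAat
Gbp3 (chr3:142559989-142560024, plus strand): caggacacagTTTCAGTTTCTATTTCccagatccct
Bst2 (chr8:71537577-71537612, minus strand): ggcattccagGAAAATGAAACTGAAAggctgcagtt
Ifi205 (chr1:174031870-174031899, minus strand): ccaggccaggGAAATTGAAAgctatgaaca

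Of the 45 genes 36 had a promoter window. The ISRE core, searched on both strands, was in 23 of these 36 genes (63.9%), against 3.99% of the 27025 genes with a window. The GAS core TTCNNNGAA, also searched on both strands, was in 8 of 36 (22.2%), against 9.55% of all genes. The 64 bases shown for Ifit3 and Ifit3b were identical letter for letter. The transcripts of these and other pairs overlap too, which matters for how reads are divided between them. In GENCODE M21, 61.8% of the 31-base words of Ifit3 also occurred in another gene, as did 55.3% for Ifit3b, 68.8% for Oas1a, 55.1% for Oas1g, 34.6% for Ifi204 and 22.1% for Ifi205. Values of these single genes are therefore uncertain. None of the 31-base words of Oas2, Ifit2, Cmpk2 or Bst2 occurred in another gene.

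Some families lie in clusters (GENCODE M21, GRCm38). The 5 Ifit genes span 34550694 to 34650009 on chromosome 19, and Oas2, Oas3, Oas1g and Oas1a lie between 120730333 and 120907521 on chromosome 5, with Oasl2 and Oasl1 as neighbours further up that chromosome. Gbp5, Gbp7, Gbp3 and Gbp2 lie in that order between 142493978 and 142638008 on chromosome 3. Rsad2 and Cmpk2 are neighbours on chromosome 12. Mx2 is annotated as a polymorphic pseudogene.

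Expression is given in TPM, the transcripts of a gene per 1000000 transcripts, a share of all transcripts in a library after correction for length, so levels of different genes can be compared, while sequencing depth is not kept. The tumor libraries held far less transcript of leukocyte genes. The geometric mean of 40 pan-leukocyte genes was 268, 276 and 281 TPM in lung and 14.1 and 39.5 TPM in tumor. All 20 neutrophil identity genes fell, with sums of 41705 to 67970 TPM in lung and of 1301 and 4427 TPM in tumor, and none of the list was at 0. In contrast 11 of 12 epithelial genes rose, with sums of 58.6 to 116 TPM in lung and 6316 and 6347 TPM in tumor. Sums of fibroblast genes were 16.8 to 23.2 TPM in lung, compared with 1196 and 218 TPM in tumor, and the share of mitochondrially encoded transcript was 2.67% to 4.40% in lung and 9.01% and 15.1% in tumor. Both libraries labelled tumor thus held more transcript of the epithelial list than of the neutrophil list. In bulk RNA, fewer cells of a type and less RNA per cell cannot be told apart. The part of these differences in the results below was not tested, and values are therefore given both as TPM and relative to the pan-leukocyte genes.

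The 45 genes together summed to 1963, 2057 and 2100.4 TPM in lung, compared with 364 and 545 TPM in tumor. In lung the highest was Oasl2, and in tumor it was Bst2. Of the 45 genes 44 reached a mean of 1 TPM and were tested with limma on log2(TPM + 1), and 36 were lower in tumor by the limits used, an adjusted p under 0.05 over all tested genes and at least a 1.5-fold difference. Over all 16387 tested genes 27.0% were lower by the same limits. A further 2 were higher, Bst2 and Ifi205, where 31.6% of all tested genes were higher. The other 6 tested genes, Mx1, Ifi204, Isg20, Ifi44, Ifi35 and Cxcl10, were not called in either direction, and Mx2 was below the filter. In 40 of the 45 genes both tumor libraries lay below all 3 lung libraries, as in 35.7% of tested genes, and in 3 both lay above them, as in 39.9%, so that 43 of 45 did not overlap where 75.6% of tested genes did not. The median difference of the tested and untested members, tumor minus lung, was -1.87 on the log2(TPM + 1) scale, against 0.02 over all tested genes, and it was 1.63 after centring on the pan-leukocyte genes, where the median of all tested genes was 3.51.

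**Figure D1:**
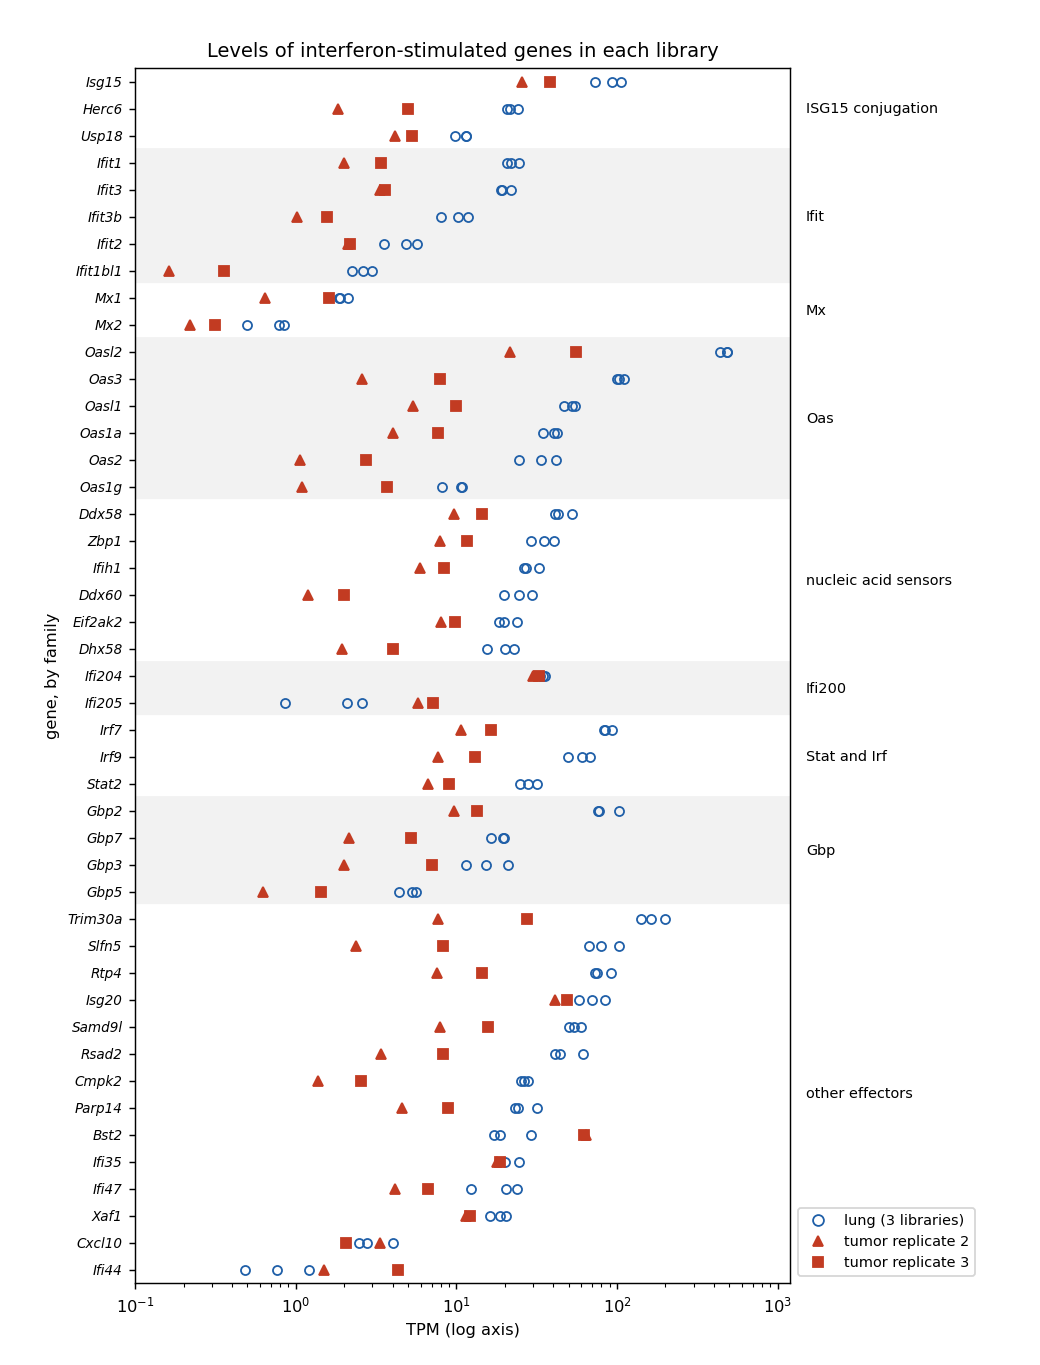
TPM of each of the 45 interferon-stimulated genes on a log axis, by family, with open circles for the 3 lung libraries and filled symbols for tumor libraries 2 and 3. In 40 genes both tumor symbols lie left of all lung circles, while Bst2, Ifi205 and Ifi44 show the opposite order.

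The transcription factors that carry the interferon signal into the nucleus were all lower in tumor TPM. Irf7, the master factor for interferon alpha genes and itself an interferon target, read 84.1, 92.6 and 82.4 TPM in lung, compared with 10.7 and 16.4 TPM in tumor. (In each such list lung libraries come in the order 1, 2 and 3 and tumor libraries in the order 2 and 3.) The lung mean was 86.4 ± 5.45 TPM (SD, n = 3), 6.38 times the tumor mean, and the lowest lung library lay well above both tumor libraries. Irf7 fell by 2.61 on the log2 scale (SE 0.22, limma adjusted p = 0.00129). Stat2, a subunit of ISGF3, showed the smallest difference of the 3. It read 25.0, 28.0 and 31.7 TPM in lung and 6.62 and 8.99 TPM in tumor and fell by 1.74 (SE 0.20, adjusted p = 0.00229). Irf9, the DNA-binding part of ISGF3, lay between them with a difference of -2.44. The median of the 3 was -2.44, and 1.05 relative to the pan-leukocyte genes.

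All 6 sensors fell. Ddx58, which encodes RIG-I, a receptor for viral RNA with a triphosphate end, was the highest of them, at 42.6, 40.8 and 52.1 TPM in lung and 9.64 and 14.5 TPM in tumor, a difference of -1.84 (SE 0.23, adjusted p = 0.00273). Ddx60, a helicase linked to RIG-I signalling, fell most, from 19.7, 24.4 and 29.5 TPM to 1.20 and 2.01 TPM (difference -3.29, SE 0.26, adjusted p = 0.00124). For Ddx60 the lung mean was 15.3 times the tumor mean. Eif2ak2, the RNA-activated kinase PKR that shuts down translation, differed least. Its levels were 18.4, 19.8 and 23.7 TPM in lung and 8.005 and 9.86 TPM in tumor, which gave -1.12 (SE 0.19, adjusted p = 0.00634). The groups of Ddx60 and of Eif2ak2 did not overlap, as for 75.6% of all tested genes. Ifih1 (MDA5, a sensor of long double-stranded RNA), Dhx58 (LGP2, a regulator of both sensors) and Zbp1 (a sensor of Z-form nucleic acid) differed by -1.75 to -2.40. The median of the sensors was -1.85, and 1.64 relative to the pan-leukocyte genes.

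The Oas family showed the largest median difference of the 9 families. OAS1 to OAS3 make the second messenger that activates RNase L, and OASL1 lacks that activity. Oasl2 was the most abundant of all 45 genes in lung, at 437, 482 and 480.5 TPM, and stood at 21.6 and 55.8 TPM in tumor. Oas3 showed the largest difference of all 45, from 99.8, 103 and 111 TPM in lung to 2.58 and 7.89 TPM in tumor. The lung levels of Oas3 lay within a narrow band (105 ± 5.75 TPM, SD, n = 3), whereas the 2 tumor libraries differed 3.06-fold. Oas3 fell by 4.23 on the log2 scale (SE 0.40, limma adjusted p = 0.00161) and Oasl2 fell by 3.70 (SE 0.41, adjusted p = 0.00200). Oas1g, read at 10.8, 10.7 and 8.10 TPM in lung and 1.10 and 3.69 TPM in tumor, had the smallest difference, -1.78 (SE 0.39, adjusted p = 0.0138). Its transcript shares most of its sequence with Oas1a, and its call was lost when the replicate number was added to the model (adjusted p = 0.0907). Oas1a, Oas2 and Oasl1 differed by -2.60 to -3.60. The median of the 6 was -3.12, and 0.37 relative to the pan-leukocyte genes.

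All 5 Ifit genes, whose products bind foreign RNA lacking the host cap modification, fell. Ifit1 had the highest mean over the 5 libraries and the largest difference on the log2(TPM + 1) scale, with 21.9, 20.7 and 24.4 TPM in lung and 1.98 and 3.38 TPM in tumor (difference -2.69, SE 0.23, adjusted p = 0.00133). In tumor Ifit3 was higher than Ifit1, at 3.33 and 3.60 TPM, and between group means Ifit1bl1 differed more (10.1-fold) than Ifit1 (8.33-fold). Ifit2 differed least. It read 4.84, 3.52 and 5.65 TPM in lung and 2.10 and 2.18 TPM in tumor, a difference of -0.84 (SE 0.24, adjusted p = 0.0338). The Ifit2 groups did not overlap, but the call was lost without lung library 1 (adjusted p = 0.0854), lung library 3 (0.0822), tumor library 2 (0.139) or tumor library 3 (0.117). Ifit3, Ifit3b and Ifit1bl1 differed by -1.52 to -2.26. The family median was -2.24, and 1.26 relative to the pan-leukocyte genes.

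The Mx genes, which encode dynamin-like GTPases that trap viral ribonucleoproteins, were barely present in either tissue. Mx1 read 2.12, 1.87 and 1.89 TPM in lung and 0.640 and 1.61 TPM in tumor. Mx2 read 0.784, 0.845 and 0.496 TPM in lung and 0.220 and 0.316 TPM in tumor. Tumor libraries lay below lung libraries in both genes, but Mx1 was not called (difference -0.51, SE 0.30, adjusted p = 0.200) and Mx2 was not tested. Mx1 passed the limits without tumor library 3 (-0.85, adjusted p = 0.0465). The median of the pair was -0.47 with a pseudocount of 1, -0.99 with a pseudocount of 0.1, and 3.03 relative to the pan-leukocyte genes.

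In the ISG15 group, the ubiquitin-like modifier Isg15 itself stood at 93.1, 105 and 73.4 TPM in lung and 25.7 and 38.2 TPM in tumor. It fell by 1.48 (SE 0.25, limma adjusted p = 0.00639), a 2.83-fold difference in mean TPM. The groups did not overlap, as in 75.6% of all tested genes. With the replicate number in the model Isg15 was not called (adjusted p = 0.0687). Herc6, the mouse ligase that attaches ISG15 to proteins, fell more, from 20.6, 21.4 and 24.1 TPM to 1.82 and 5.02 TPM (difference -2.48, SE 0.35, adjusted p = 0.00379). Usp18 removes ISG15 and also blocks IFNAR2, so it acts as a brake on the pathway. It read 9.75, 11.4 and 11.5 TPM in lung and 4.14 and 5.31 TPM in tumor and fell by 1.06 (SE 0.19, adjusted p = 0.00719), a call lost without tumor library 2 (-0.91, adjusted p = 0.0506). The median of the 3 was -1.48, and 2.01 relative to the pan-leukocyte genes.

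The 4 Gbp genes encode guanylate-binding GTPases that attack the membranes of intracellular pathogens and respond strongly to interferon gamma as well as to type I interferon. All 4 fell. Gbp2 was the highest and changed most, from 103, 77.1 and 76.4 TPM in lung to 9.64 and 13.4 TPM in tumor (difference -2.79, SE 0.23, adjusted p = 0.00130). Gbp5 changed least on the log2(TPM + 1) scale, from 5.25, 4.39 and 5.64 TPM to 0.623 and 1.43 TPM (difference -1.61, SE 0.27, adjusted p = 0.00594). Neither overlapped between groups, and 75.6% of all tested genes did not. Gbp3 read 21.1, 11.5 and 15.2 TPM in lung and 2.01 and 7.004 TPM in tumor. Its call (difference -1.74, SE 0.49, adjusted p = 0.0305) was lost without tumor library 2 (-1.04, adjusted p = 0.131) and without any one lung library (adjusted p from 0.0517 to 0.0773). By mean TPM, and with a pseudocount of 0.1, Gbp3 rather than Gbp5 differed least (3.53-fold against 4.97-fold between means). Gbp7 differed by -2.14. The family median was -1.94, and 1.55 relative to the pan-leukocyte genes.

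The Ifi200 pair, encoding nuclear DNA-binding proteins with PYRIN and HIN domains, did not share the lower TPM of the other families. Ifi204 was nearly level, at 33.0, 35.7 and 34.5 TPM in lung and 29.8 and 32.7 TPM in tumor (difference -0.13, SE 0.14, adjusted p = 0.442). Its tumor values lay just below the lung values, and it was not called. Ifi205 rose, from 2.58, 0.855 and 2.07 TPM in lung to 5.80 and 7.11 TPM in tumor, a 3.52-fold difference in mean TPM (difference 1.44, SE 0.35, adjusted p = 0.0187). The Ifi205 call was lost without tumor library 2 (adjusted p = 0.0862) and without tumor library 3 (adjusted p = 0.104). Part of the transcript of Ifi205 is shared with Ifi211, which rose too, from 4.94, 3.90 and 8.18 TPM to 30.4 and 32.8 TPM (difference 2.34, SE 0.31, adjusted p = 0.00299). The summed level of Ifi204 and Ifi205 was 35.6 to 36.6 TPM in lung and 35.6 and 39.8 TPM in tumor. Macrophages are a known source of both, and the 11 monocyte and macrophage genes moved in both directions. Of those 4 fell and 5 rose, where only 1 fell without lung library 1 or lung library 3, 2 without tumor library 2 and 3 without lung library 2 or tumor library 3. Tested genes as a whole also moved in both directions, with 27.0% lower and 31.6% higher. The monocyte and macrophage list had sums of 698 to 812 TPM in lung and 499 and 1138 TPM in tumor. The part of such cells in the Ifi205 level was not tested.

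Among the 14 other effectors 9 fell and Bst2 rose. Trim30a, a regulator of innate signalling, was the highest in lung, at 141, 162 and 198 TPM, and stood at 7.68 and 27.3 TPM in tumor (difference -3.41, SE 0.53, adjusted p = 0.00471). Slfn5, of the Schlafen family of growth and RNA regulators, differed most within the set, from 79.98, 67.1 and 103 TPM to 2.37 and 8.30 TPM (difference -3.89, SE 0.48, adjusted p = 0.00253). The 2 tumor libraries differed 3.56-fold in Trim30a and 3.50-fold in Slfn5. Ifi47, an immunity-related GTPase, read 23.97, 12.3 and 20.4 TPM in lung and 4.17 and 6.60 TPM in tumor. Its call (-1.61, SE 0.35, adjusted p = 0.0131) was lost without tumor library 2 (-1.34, adjusted p = 0.101). Xaf1, a pro-apoptotic partner of XIAP, read 20.3, 16.1 and 18.6 TPM in lung and 11.5 and 12.1 TPM in tumor, only just past the fold limit (-0.59, SE 0.17, adjusted p = 0.0316). That call was lost without lung library 1 (adjusted p = 0.0811), lung library 3 (0.0764), tumor library 2 (0.118), tumor library 3 (0.0863) or the mitochondrially encoded genes (0.0638).

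Bst2, the membrane protein tetherin that holds budding viruses at the cell surface, was the most abundant of the 45 genes in tumor. It read 29.1, 18.7 and 17.2 TPM in lung and 63.6 and 62.5 TPM in tumor, and the 2 tumor libraries were nearly equal. Bst2 rose 2.91-fold in mean TPM (difference 1.54, SE 0.26, adjusted p = 0.00627), a call lost without tumor library 2 (1.52, adjusted p = 0.0555). Its transcripts share no 31-base word with another gene. The summed epithelial genes were likewise nearly equal in the tumor libraries, with a ratio of library 3 to library 2 of 1.00. The median ratio over all tested genes was close to that too, at 0.978. The part of epithelial genes in the level of Bst2 was not tested.

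Isg20, an exonuclease of single-stranded RNA, was the second most abundant in tumor by mean TPM. It read 69.9, 83.9 and 57.9 TPM in lung and 40.9 and 48.7 TPM in tumor, without overlap, as in 75.6% of all tested genes. Isg20 narrowly missed the limit (-0.63, SE 0.21, limma adjusted p = 0.0508). It passed with a pseudocount of 0.1 (adjusted p = 0.0491), a filter of 5 TPM (0.0449), median-of-ratios scaling (-0.81, adjusted p = 0.0444) and without lung library 3 (0.0400). Ifi44 lay in the opposite direction, at 0.764, 0.480 and 1.21 TPM in lung and 1.50 and 4.32 TPM in tumor. It was not called (1.02, SE 0.43, adjusted p = 0.0938). Without tumor library 2 its difference was 1.57. After centring on the pan-leukocyte genes it was 4.52 and called higher, as were 86.8% of all tested genes in that fit. Ifi35 and the chemokine Cxcl10 overlapped between the groups. Ifi35 read 24.5, 20.1 and 18.3 TPM in lung and 17.8 and 18.6 TPM in tumor (adjusted p = 0.424). Cxcl10, a ligand of CXCR3 that attracts T cells, read 4.02, 2.77 and 2.46 TPM in lung and 3.33 and 2.06 TPM in tumor (-0.15, SE 0.29, adjusted p = 0.679). The remaining Rsad2, Cmpk2, Rtp4, Parp14 and Samd9l fell, with differences from -1.88 to -3.24. The median of the 14 other effectors was -1.74, and 1.75 relative to the pan-leukocyte genes.

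**Figure D2:**
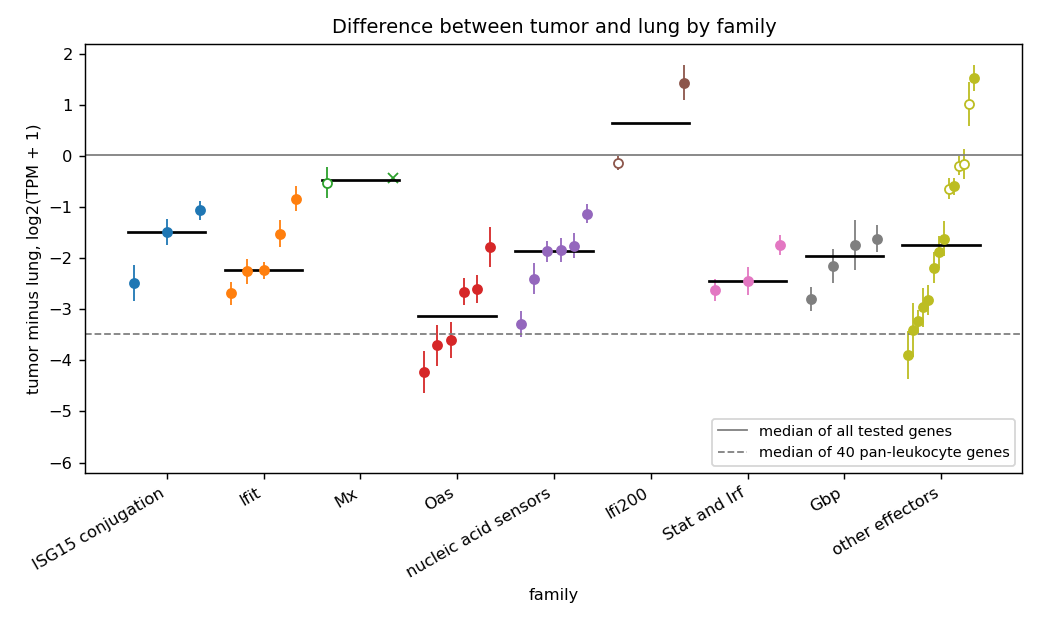
Difference between tumor and lung in log2(TPM + 1) for each gene by family, with bars for 1 standard error of the limma fit, filled points for called genes, open points for genes not called, a cross for Mx2 (not tested) and black lines for family medians. The Oas median of -3.12 lies nearest the dashed line of the pan-leukocyte genes and the Ifi200 median of 0.65 farthest above it. After centring on those genes all 9 family medians are above 0. The median of all tested genes is then 3.51, and only the Ifi200 median (4.15) exceeds it.

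The makeup of the interferon-stimulated signal differed between the groups. Oas genes held 33.6%, 35.7% and 34.3% of the summed TPM of the 45 genes in lung and 9.80% and 16.1% in tumor. Other effectors held 31.1%, 30.6% and 32.5% in lung and 48.8% and 44.1% in tumor. The Ifi200 pair went from 1.81%, 1.78% and 1.74% to 9.78% and 7.31%. ISG15 conjugation genes also held a larger share in tumor, 8.70% and 8.91%, than in lung, 5.19% to 6.71%. These shares compare the 45 genes with each other within a library and do not move with the scaling of the library. In all 9 families the shares of the 2 groups did not overlap. The 9 shares add up to 100% in each library, so they are not separate results. Of single tested genes, in TPM, 75.6% did not overlap either. With 3 libraries against 2, an exact permutation test cannot give a two-sided p below 0.1, so no test of the shares is given.

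**Figure D3:**
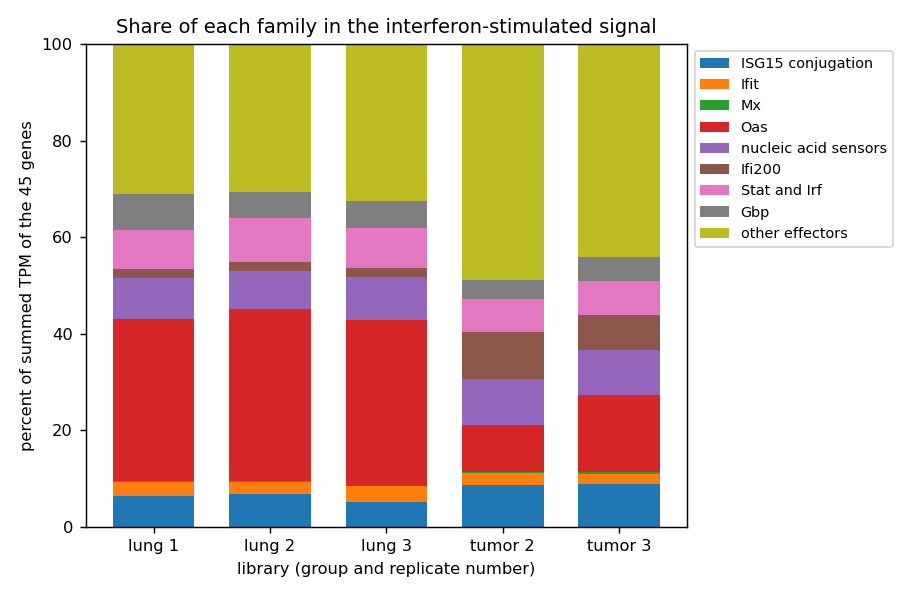
Percent of the summed TPM of the 45 genes held by each family in each of the 5 libraries, as stacked bars that start at 0. The Oas share is 33.6% to 35.7% in the lung libraries and 9.80% and 16.1% in the tumor libraries.

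Relative to leukocyte transcript the order was turned for most of the genes. Each gene's TPM was divided by the geometric mean of the 40 pan-leukocyte genes in the same library, which itself was 10.2 times higher in lung. A gene with equal TPM in both groups would thus read higher in tumor, and the share of all genes that did was not counted. In the limma fit centred on the same genes, given below, 86.8% of all tested genes were called higher. By group means 39 of the 45 genes were higher in tumor than in lung on the divided measure, and 6 were lower. Those 6 were Oas2 (0.596 times the lung value), Oas3 (0.502), Oasl2 (0.866), Ddx60 (0.761), Cmpk2 (0.844) and Slfn5 (0.623). Oas3 read 0.372, 0.374 and 0.395 per pan-leukocyte unit in lung and 0.182 and 0.200 in tumor, so its groups did not overlap on this measure either. Oasl2 read 1.63, 1.75 and 1.71 in lung and 1.53 and 1.41 in tumor. Isg15 went the other way, with 0.347, 0.382 and 0.261 in lung and 1.82 and 0.968 in tumor. Bst2 showed 0.109, 0.0678 and 0.0612 in lung against 4.499 and 1.58 in tumor.

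With libraries centred on the pan-leukocyte genes before the limma fit, none of the 45 genes was called lower and 25 were called higher. Over all tested genes 86.8% were called higher and 0.592% lower in that fit, so the 25 genes are a smaller share than the background. Centring adds the same amount to every gene, and on log2(TPM + 1) a gene near 0 in both tissues also receives it, as Mx2 shows with 3.07. In this fit Isg15 was called higher (2.01, adjusted p = 0.00120) and Irf7 was not called (0.88, adjusted p = 0.147). Oas3 had the lowest value, -0.73 (adjusted p = 0.233). Only Oas2, Oas3, Oasl2 and Slfn5 stayed below 0 of the 45. Ddx60 (0.20) and Cmpk2 (0.26) lay just above 0, although both were lower in tumor on the divided measure. All other scalings tried left the sign of every family median as it was.

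**Figure D4:**
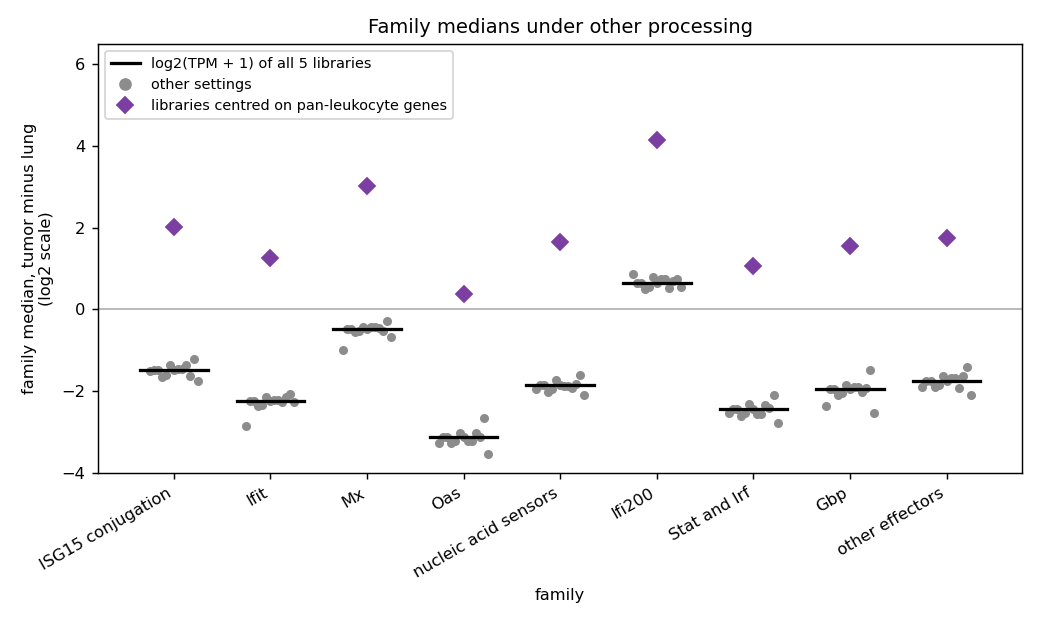
Median difference between tumor and lung of each family on the log2 scale, with black lines for the main values, grey points for the other settings and left-out libraries, and purple diamonds for libraries centred on the pan-leukocyte genes. Only the diamonds lie on the other side of 0, from 0.37 for Oas to 3.03 for Mx, in the 8 families whose main median is below 0. With that centring the median of all tested genes is 3.51.

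The 2 tumor libraries differed in these genes as well. Library 3 exceeded library 2 in 43 of the 45 genes, the exceptions being Bst2 (ratio 0.982) and Cxcl10 (0.619), whereas library 3 was the higher in 47.0% of all tested genes. The median ratio was 1.70 over the 45 genes and 0.978 over all tested genes. Ratios of leukocyte genes were larger, 2.79 for the pan-leukocyte geometric mean, 4.07 for Ptprc (CD45) and 3.40 for the summed neutrophil identity genes. The Oas genes came nearest to these, with a median of 2.58 and a range of 1.85 to 3.37, followed by Gbp at 2.37. The Ifi200 genes (1.10 and 1.22), Xaf1 (1.05), Ifi35 (1.04) and Ifit2 (1.03) were close to equal. Lung means of 7 genes were more than 10 times their tumor means, and these had ratios from 1.68 to 3.50. The 7 were Ifit1bl1, Oas2, Oas3, Oasl2, Ddx60, Cmpk2 and Slfn5. Their median ratio was 2.58, against 1.53 for the other 38 genes. The same tumor values enter both the fold and the ratio, so the split is no separate evidence, and it depends on the cut. Trim30a, just under it at 9.53-fold, had the highest ratio of the 45 genes, 3.56. Ddx60, at 15.3-fold, had the lowest of the 7, 1.68. The ratio has 1 library on each side and no test.

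**Figure D5:**
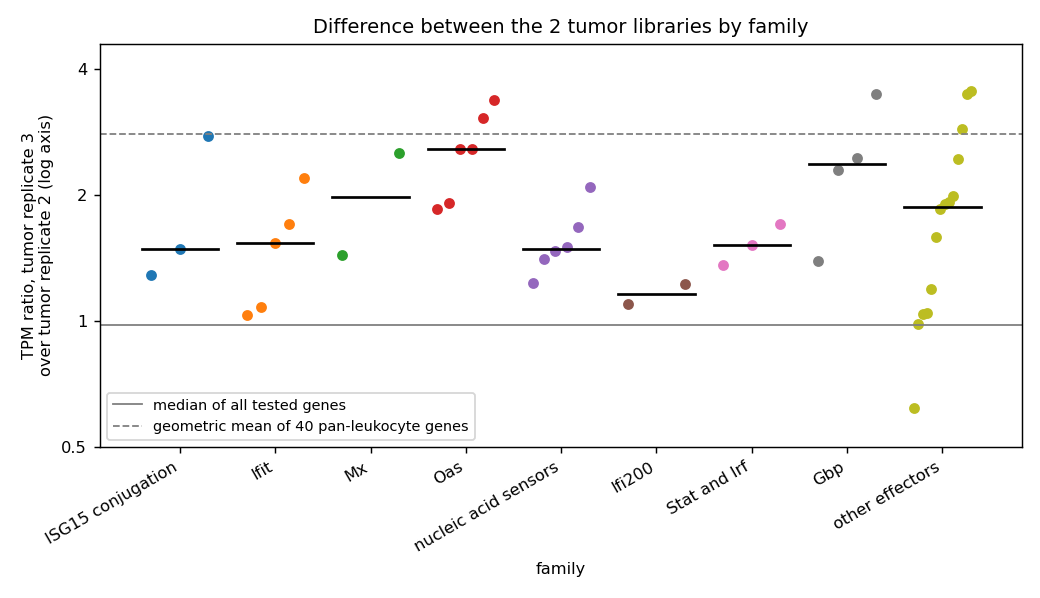
Ratio of TPM in tumor library 3 to tumor library 2 for each gene by family on a log axis, with black lines for family medians, a solid line for all tested genes (0.978) and a dashed line for the pan-leukocyte geometric mean (2.79). Bst2 and Cxcl10 are the only genes of the 45 below 1.

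The interferons themselves were close to absent from these cells. None of 20 type I and type III interferon genes reached the filter, 16 were listed at 0 in every library, and their sum was at most 0.396 TPM in any library. Ifng, the interferon gamma gene, ranged from 0.0471 to 0.375 TPM over the lung libraries and was listed at 0 in both tumor libraries. Of 8 genes listed for plasmacytoid dendritic cells, the main makers of interferon alpha, 3 reached the filter. Over all tested genes 27.0% were lower and 31.6% higher, and of these 3 genes 1 was lower, 1 higher and 1 not called. The count of higher genes was 0 without lung library 1, lung library 2 or tumor library 2. The sum of the 8 was 76.2 to 83.5 TPM in lung and 74.6 and 62.4 TPM in tumor, nearly all of it from Tcf4, Irf8 and Runx2, which other cell types use too. Siglech, their more specific surface marker, read 1.34, 0.802 and 1.35 TPM in lung and 0.0582 and 0.286 TPM in tumor. It was below the filter, was not tested and was named after its values were seen. The pan-leukocyte geometric mean was likewise higher in lung, by 10.2 times.

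Of 15 genes for interferon receptors and proximal signalling 11 fell, none rose, and Jak2, Tyk2, Irf8 and Irf3 were not called. Among all tested genes 27.0% were lower and 31.6% higher. The median of the 15 genes was -1.60, and 1.89 relative to the pan-leukocyte genes. Jak1, the kinase bound to IFNAR2, read 175, 204 and 214 TPM in lung and 32.4 and 40.8 TPM in tumor and fell by 2.40. The factors Irf1 and Irf2, an activator and a repressor at the ISRE, fell, with differences of -2.35 and -2.06. Jak1, Irf1 and Irf2 did not overlap between groups, like 75.6% of all tested genes.

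The 10 negative regulators were divided, with 5 lower and 2 higher, a median of -0.26, and 3.23 relative to the pan-leukocyte genes. All tested genes were divided too, with 27.0% lower and 31.6% higher, a median of 0.02, and 3.51 after that centring. Socs3, an inhibitor of cytokine receptor kinases, read 642, 763 and 866 TPM in lung and 101 and 249 TPM in tumor (-2.24, SE 0.41, adjusted p = 0.00812). Pias1, Socs1 and Usp2 fell, with differences of -1.77, -1.11 and -1.67. Trim24, a repressor of interferon targets, rose from 6.06, 4.69 and 6.61 TPM to 15.3 and 18.9 TPM (1.42, SE 0.21, adjusted p = 0.00433). Ptpn11 (SHP2, a phosphatase) rose by 0.64. The calls of Usp2 and Ptpn11 were lost without single libraries (highest adjusted p 0.0745 and 0.0854), and without tumor library 2 or tumor library 3 only 3 negative regulators were lower and 1 higher.

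A wider list of 104 other interferon-stimulated genes, of which 87 were tested, also moved in both directions. In it 58 fell, 7 rose and 22 were not called, with a median of -1.32, and 2.18 relative to the pan-leukocyte genes. By the same limits 27.0% of all tested genes were lower and 31.6% higher. Leaving out single libraries gave 43 to 54 lower and 5 to 7 higher. The peptide transporter genes Tap2 (95.4 TPM mean in lung, 16.5 TPM in tumor) and Tap1 fell (differences -2.46 and -2.78), and the nuclear body genes Sp110 and Sp100 fell (-3.12 and -3.92). Of those that rose, Apol9b read 0.483, 0.0779 and 0.648 TPM in lung and 8.68 and 9.65 TPM in tumor (2.88, SE 0.28, adjusted p = 0.00166). The aminopeptidase gene Lap3 read 9.13, 7.30 and 4.75 TPM in lung and 51.4 and 59.8 TPM in tumor (2.85, SE 0.28, adjusted p = 0.00169).

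The authors' deposited table gives 2 of the 45 genes a false discovery rate under 0.05, Cmpk2 at 0.0400 and Oas3 at 0.0435. By that false discovery rate and a 1.5-fold limit on mean TPM, 0.166% of the 34930 genes with a value in the authors' deposited table were lower in tumor and 0.464% were higher.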

How the data were processed

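The values deposited by the authors are TPM from Salmon 0.9.1 with GENCODE mouse M24 transcripts, per the series' design text. Salmon assigns reads to transcripts without genome alignment, and reads that fit several similar transcripts are shared out by its model. RNA came from at least 2000000 sorted cells, and 20000000 paired reads are stated for each library, per the labels. TPM keeps no depth, so no counting error or floor can be given. The deposited p-values and false discovery rates are the authors' and were used only for their calls. Rows with dates in place of symbols, 26 in number and 0.0650% to 0.0826% of a library's TPM, were left out.

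On log2(TPM + 1), genes whose mean reached 1 TPM were fitted together (limma 3.58.1, R 4.3.3, empirical Bayes with trend), two-sided, with Benjamini-Hochberg adjustment over 16387 genes. That scale understates the change of low genes. Calls needed an adjusted p under 0.05 and a 1.5-fold difference on the log2(TPM + 1) scale, with the sizes of both limits from the design text. Folds printed in the text, and the fold limit set beside the authors' false discovery rate, are ratios of mean TPM. Groups came from the treatment label and library numbers from the titles. Only the limma fit and its calls were tested on simulated data, without a shift in library makeup. The centring, the division by pan-leukocyte genes and the shares were not tested in that way. Alternatives were a pseudocount of 0.1, no filter or one of 5 TPM, median-of-ratios and TMM scaling, leaving out mitochondrially encoded genes, centring on 40 pan-leukocyte genes, no trend, the replicate number as a block, no fold limit, and leaving out each library.

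The members and all lists were chosen with earlier results of these data known. Values in every library are given, by family, for the highest gene, those with the largest and smallest difference, and every gene called higher, not called or losing its call without 1 library; from pathway lists, up to 4 called genes with the smallest p and up to 2 in the other direction, except 1 item that is not reported here. Ifi211, Siglech, Tyk2, Jak2, Irf3 and Irf8 were named after their values were seen. Promoter windows are from RefSeq GRCm38.p6, and positions and 31-base words from GENCODE M21.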

Additional observations from a re-analysis of the deposited data

How the results depend on the processing

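The count of 36 lower genes ranged from 34 to 37 over both pseudocounts, the filters, the median-of-ratios and TMM scalings, the fits without mitochondrially encoded genes, without trend and without a fold limit, and from 31 to 35 when single libraries were left out. The count of 2 higher genes fell to 1 with a filter of 5 TPM, under which 37 of the 45 genes were tested. It stayed at 2 without any one lung library. Without tumor library 2 neither Bst2 nor Ifi205 kept its call, at differences of 1.52 and 1.57. That fit has 1 tumor library, and Ifi44 stood at 1.57 in it. Without tumor library 3 the Ifi205 call was lost, at a difference of 1.32. Without single libraries the ISG15 conjugation median ranged from -1.76 to -1.21. A pseudocount of 0.1 moved the Ifit median to -2.86 and the Mx median to -0.99. Cxcl10 changed sign without lung library 1 or tumor library 3 (range -0.40 to 0.10).

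With the replicate block 31 genes were lower, all of them also lower without it, and 2 were higher. Isg15, Ifit2, Oas1g, Gbp3 and Xaf1 lost their calls, and Cxcl10 stood at 0.012. Lung library 1 has no partner, and same-numbered libraries did not deviate together (r = 0.0034 for number 2 and 0.083 for number 3 across 16387 genes), so they share only a number.

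Centring on the pan-leukocyte genes left 0 genes lower and 25 higher, where 86.8% of all tested genes were called higher and their median was 3.51. It turned the median of the 45 genes to 1.63 and the family medians to 2.01 (ISG15 conjugation), 1.26 (Ifit), 3.03 (Mx), 0.37 (Oas), 1.64 (sensors), 1.05 (Stat and Irf), 1.55 (Gbp) and 1.75 (other effectors), and moved that of Ifi200 to 4.15. By gene the turned values were Isg15 2.01, Usp18 2.44, Herc6 1.01, Ifit1 0.81, Ifit1bl1 1.97, Ifit2 2.66, Ifit3 1.26, Ifit3b 1.24, Mx1 2.98, Mx2 3.07, Oas1a 0.90, Oas1g 1.71, Oasl1 0.84, Ifih1 1.63, Ddx58 1.66, Ddx60 0.20, Dhx58 1.10, Zbp1 1.74, Eif2ak2 2.37, Ifi204 3.36, Stat2 1.76, Irf7 0.88, Irf9 1.05, Gbp2 0.70, Gbp3 1.75, Gbp5 1.88, Gbp7 1.35, Isg20 2.86, Rsad2 0.54, Cmpk2 0.26, Ifi47 1.88, Ifi35 3.31, Rtp4 0.68, Xaf1 2.90, Trim30a 0.088, Parp14 1.62, Cxcl10 3.35 and Samd9l 1.31. Of these genes Ddx60 and Cmpk2 were turned only in this fit. Divided by the pan-leukocyte geometric mean they stayed lower in tumor, at 0.761 and 0.844 times the lung value. The centred median of 1.63 was 1.32 with a pseudocount of 0.1 and ranged from 1.26 to 1.87 without single libraries, settings chosen after seeing the data. TPM gives no depth, so how far depth limits the low genes is unknown, and 2 tumor libraries limit the precision of every difference.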

Other observations

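Relatives of the 45 genes from the wider list moved mostly the same way within their families, in TPM. Ifit1bl2, a further Ifit gene, fell from 6.33, 7.60 and 9.06 TPM in lung to 0.266 and 0.643 TPM in tumor (difference -2.57, SE 0.25, limma adjusted p = 0.00166). Of 6 further Oas1 genes Oas1b and Oas1c fell and 4 were below the filter. Among 7 further Gbp genes Gbp9 fell, Gbp4 and Gbp8 were not called, and 4 were below the filter. In the Trim30 cluster Trim30b, Trim30d, Trim12a, Trim12c and Trim34a fell, with Trim30b at 72.2, 91.4 and 106 TPM in lung and 1.41 and 6.36 TPM in tumor. Of 6 further Schlafen genes 4 fell and 2 were not called, and of 4 further Parp genes 3 fell while Parp11 rose. The calls of Oas1c, Trim34a, Parp9, Parp11 and Parp12 were lost without single libraries, tumor library 2 among them for each (highest adjusted p 0.109, 0.0526, 0.0518, 0.156 and 0.0787). After centring on the pan-leukocyte genes Trim30b, Trim12a, Trim12c, Slfn1, Slfn2 and Slfn4 were below 0 and the other tested genes of these families above 0. The median of all tested genes was 3.51 in that fit. The genes of this paragraph were named after their values were seen.

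The wider Ifi200 family was divided. Ifi203, Ifi207, Ifi213, Mndal and Aim2 fell, Ifi211 rose and Ifi209 was not called. All 7 were above 0 after centring on the pan-leukocyte genes, where the median of all tested genes was 3.51. The calls of Ifi203, Ifi207 and Mndal were lost without tumor library 2 and some other single libraries. Aim2, which encodes a cytosolic DNA sensor, read 28.3, 32.4 and 43.5 TPM in lung and 1.68 and 15.6 TPM in tumor, a 9.27-fold gap between the tumor libraries. Its call (difference -2.40, SE 0.79, adjusted p = 0.0477) was lost without any one lung library and without tumor library 2 (highest adjusted p 0.121).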
